A study of Mus musculus with 4 samples.

Results

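The genes described here encode core proteins of the spliceosome, the RNA-protein machine that removes introns from pre-messenger RNA. They were taken from the deposited table by symbol: genes whose name begins with Snrp and a letter from a to g, with Snrnp, Sf3a, Sf3b or Prpf, or with Lsm and a digit, without Snrpn and without pseudogenes. This gave 51 of the 22138 genes in the table, all annotated as protein coding. The study knocked down Hnrnpk, which encodes the RNA- and DNA-binding protein hnRNP K, in TT2 mouse embryonic stem cells, and its title links hnRNP K to gene silencing by the histone methyltransferase SETDB1. TT2 is a female line of C57BL/6xCBA background, grown here feeder-free in medium containing serum and the cytokine LIF, which maintains the undifferentiated state. RNA-seq libraries came from cells given control siRNA (n = 2) or Hnrnpk siRNA (n = 2). Both groups went through the same course: 100 nM of siRNA, 50 nM of the same siRNA 24 hours later, and RNA extraction about 72 hours after the later dose. Nothing in the labels gives the siRNA sequences or their number, and whether replicates were separate cultures is said only as biological replicates in the design, so the p-values below measure the spread between these 4 libraries.

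The spliceosome is built on each intron from small nuclear ribonucleoproteins (snRNPs), each a small nuclear RNA with its proteins. The U1 snRNP recognises the start of the intron and the U2 snRNP its branch point, and the U4, U5 and U6 snRNPs join as a preassembled tri-snRNP that is rearranged into the catalytic centre. A ring of Sm proteins sits on most of these RNAs, and a related ring of Lsm proteins on U6. A minor spliceosome, with U11 and U12 in place of U1 and U2, removes a small class of introns. Embryonic stem cells divide fast and hold high levels of transcripts for this machinery.

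The targeted gene was at 236 and 226 RPKM (reads scaled by transcript length and by library size) after control siRNA and at 68.0 and 70.5 RPKM after Hnrnpk siRNA, so the groups did not overlap and the ratio of the means was 0.30. The gene Gm7964, also in the table, shares 46.4% of the Hnrnpk transcript at 95% identity or more, so some reads there may not be told apart. Relative depth was read from the commonest low product of RPKM and length among single-exon genes, held by 14 to 19 values per library. It ran from 0.882 in Hnrnpk siRNA replicate 2 to 1.0 in control siRNA replicate 1. All 10 pluripotency markers reached 1 RPKM or more in at least 1 library, and their summed level was 3969 to 4122 RPKM in control siRNA and 4753 to 5080 RPKM in Hnrnpk siRNA libraries. Of 8 fibroblast markers, 5 had a mean below 0.1 RPKM, and none of the 8 was at 0 in all libraries; their sum was 8.17 to 9.66 RPKM after control siRNA and 4.92 to 5.28 RPKM after Hnrnpk siRNA. Sums of markers of other embryonic cell types were higher after Hnrnpk siRNA: 30.6 to 31.3 against 5.21 to 5.27 RPKM for 7 primitive endoderm genes, 68.5 to 73.1 against 30.5 to 36.0 RPKM for 7 trophectoderm genes, and 33.1 to 39.4 against 0.632 to 0.660 RPKM for 7 genes of the cleavage-stage embryo. In bulk RNA, fewer cells of a type and less RNA per cell cannot be told apart, and the part of these cells in the values below was not tested.

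Core spliceosome transcripts moved in both directions, and most moved little. Of the 51 genes, all of which passed the filter of a mean of at least 0.5 RPKM, 11 were called higher (21.6%) and 14 lower (27.5%) after Hnrnpk siRNA, where a call is a Benjamini-Hochberg adjusted p under 0.05 from limma over all 12486 genes tested. Over all genes tested, 32.2% were called higher and 35.0% lower, 67.2% in either direction, against 49.0% of the spliceosome genes. The median log2 change was 0.013 for the 51 genes and -0.015 over all genes tested. The ratio of mean RPKM stayed within 1.5-fold for 42 of the 51 genes (82.4%), and for 69.1% of all genes tested. On the log2(RPKM + 0.5) scale of the test, 2 members (3.92%), Prpf40b and Lsm14b, were called with a change of 1 or more, both lower; over all genes tested the share was 8.51% in either direction and 4.52% for falls. Lsm11 lay just short of that at -0.96, although its mean RPKM fell 2.11-fold, since the added value shrinks the changes of low genes. Both Hnrnpk siRNA libraries lay on the same side of both control siRNA libraries for 32 members (62.7%), against 84.7% of all genes tested. The summed level of the 51 transcripts was 4780 and 4880 RPKM in the control siRNA libraries and 4790 and 5069 RPKM in the Hnrnpk siRNA libraries. These sums overlapped, and they made up 1.27% to 1.34% of all RPKM in each library. The number called higher rested partly on 1 library: it was 6 without Hnrnpk siRNA replicate 2, where 12 were called lower. Over all genes tested, calls in both directions were also fewer without that library. Under quantile normalization 8 of the 51 genes were called higher and 18 lower, against 4176 and 4332 of the 12486 genes tested.

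**Figure D1:**
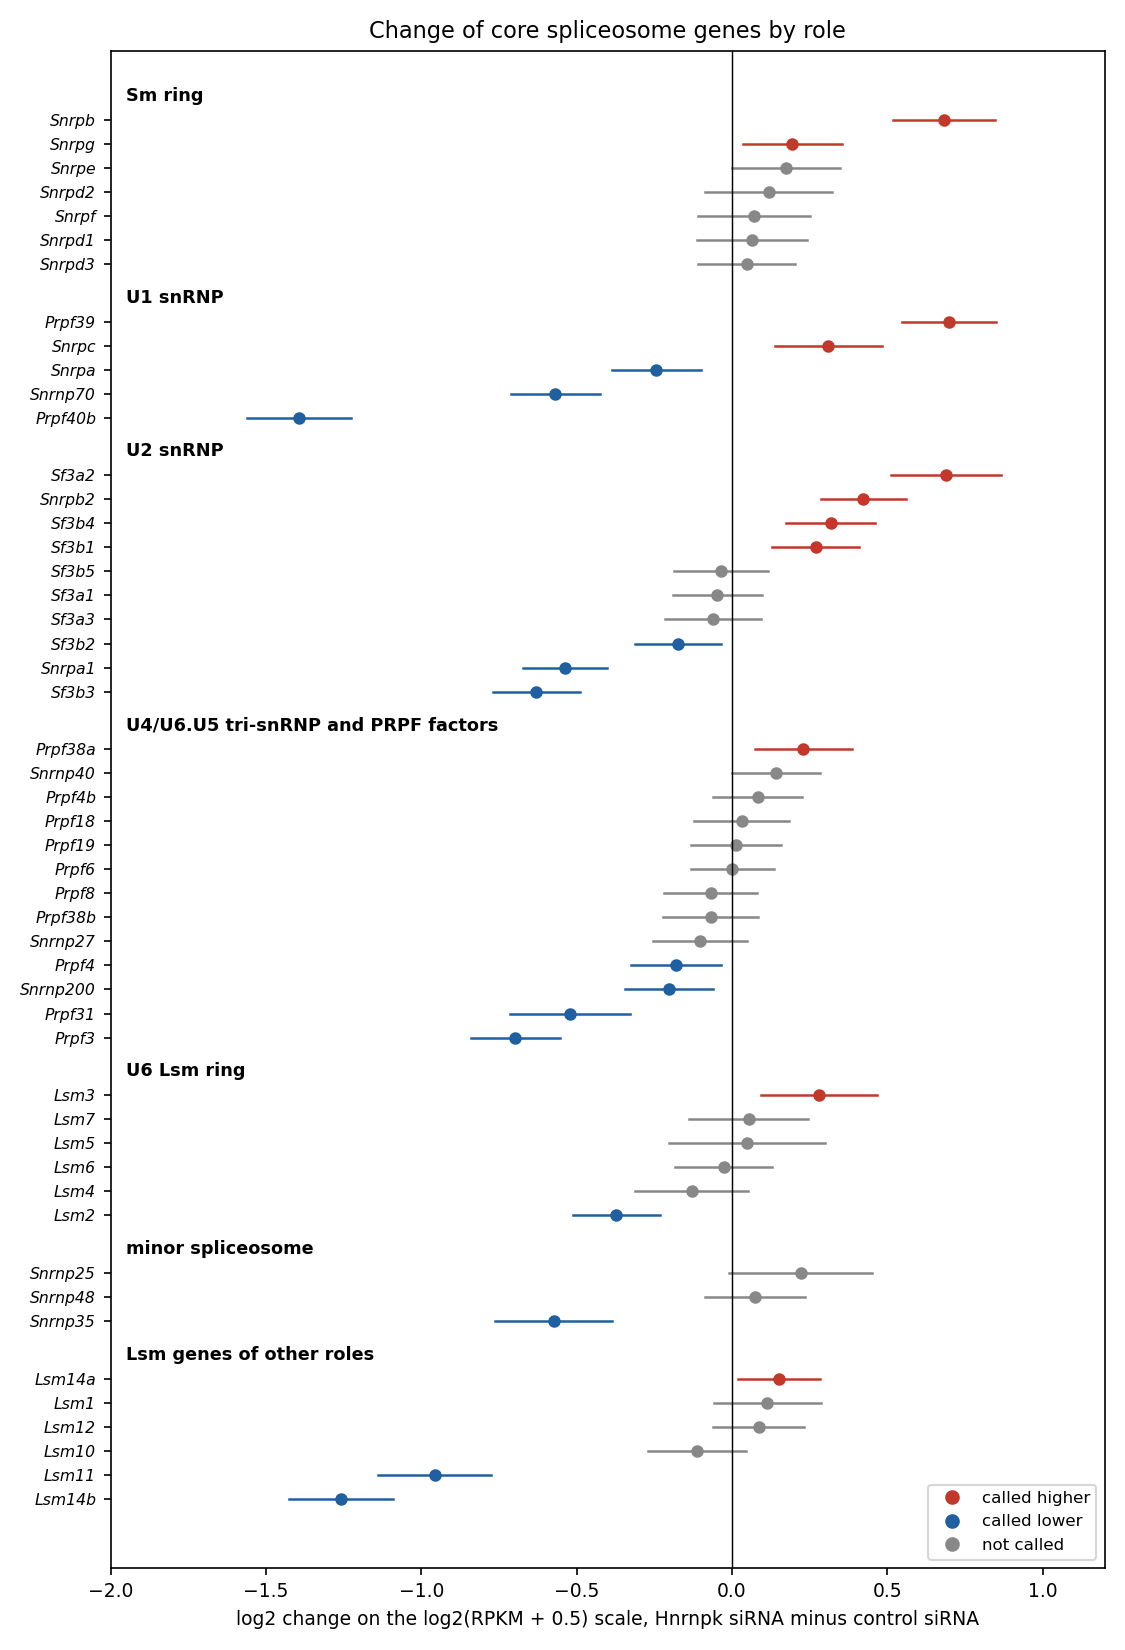
Log2 change of 50 of the 51 genes (horizontal axis, on the log2(RPKM + 0.5) scale, Hnrnpk siRNA minus control siRNA) by role, with 95% intervals from limma as bars; points are red where called higher, blue where called lower and grey where not called. Every group but the Sm ring holds genes called lower, where the share over all genes tested was 35.0%. Changes run from -1.39 for Prpf40b to 0.70 for Prpf39.

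The deepest falls were in Prpf40b, Lsm14b and Lsm11. Prpf40b (ENSMUSG00000023007, GRCm38 chromosome 15, 99295087 to 99317018, plus strand) encodes a relative of a yeast U1 protein that bridges the ends of an intron. It stood at 13.5 and 12.7 RPKM after control siRNA and at 4.62 and 4.75 RPKM after Hnrnpk siRNA, a 2.80-fold fall (log2 change -1.39, SE 0.0746, limma adjusted p = 5.54e-07). Lsm14b (ENSMUSG00000039108, chromosome 2, 180024987 to 180035465, plus strand), a cytoplasmic Lsm protein of messenger RNA storage and translational control, went from 20.6 and 19.6 RPKM to 7.71 and 8.53 RPKM, a 2.48-fold fall (log2 change -1.26, SE 0.0751, adjusted p = 9.62e-07). Lsm11 (ENSMUSG00000044847, chromosome 11, 45928269 to 45944935, minus strand), a ring protein of the U7 snRNP that trims histone messenger RNA, went from 6.07 and 5.76 RPKM to 2.74 and 2.86 RPKM, a 2.11-fold fall (log2 change -0.96, SE 0.0812, adjusted p = 7.30e-06). For each of the 3 genes both Hnrnpk siRNA libraries lay below both control siRNA libraries, which the choice of named genes required.

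Prpf39, Sf3a2 and Snrpb rose most. Prpf39 (ENSMUSG00000035597, chromosome 12, 65036333 to 65063386, plus strand), a U1-associated protein, stood at 8.71 and 8.77 RPKM after control siRNA and at 14.6 and 14.4 RPKM after Hnrnpk siRNA, a 1.66-fold rise (log2 change 0.70, SE 0.0678, limma adjusted p = 1.66e-05). Sf3a2 (ENSMUSG00000020211, chromosome 10, 80798198 to 80804924, plus strand), of the U2 snRNP, went from 114 and 98.9 RPKM to 176 and 167 RPKM, a 1.61-fold rise (log2 change 0.69, SE 0.0787, adjusted p = 4.54e-05). Snrpb (ENSMUSG00000027404, chromosome 2, 130171414 to 130179403, minus strand), which encodes Sm protein B of the ring, went from 241 and 235 RPKM to 363 and 402 RPKM, a 1.61-fold rise (log2 change 0.68, SE 0.0731, adjusted p = 3.00e-05). In each case the Hnrnpk siRNA libraries were both above the control siRNA libraries, which the choice of named genes required. The calls held in every alternative run. Values are sums over a gene's transcripts, so isoforms are not separated. The exons of Sf3a2 overlap those of Plekhj1 on the opposite strand over 16.1% of their length, and no source used here gives the strandedness of the libraries, so reads there cannot be assigned.

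**Figure D2:**
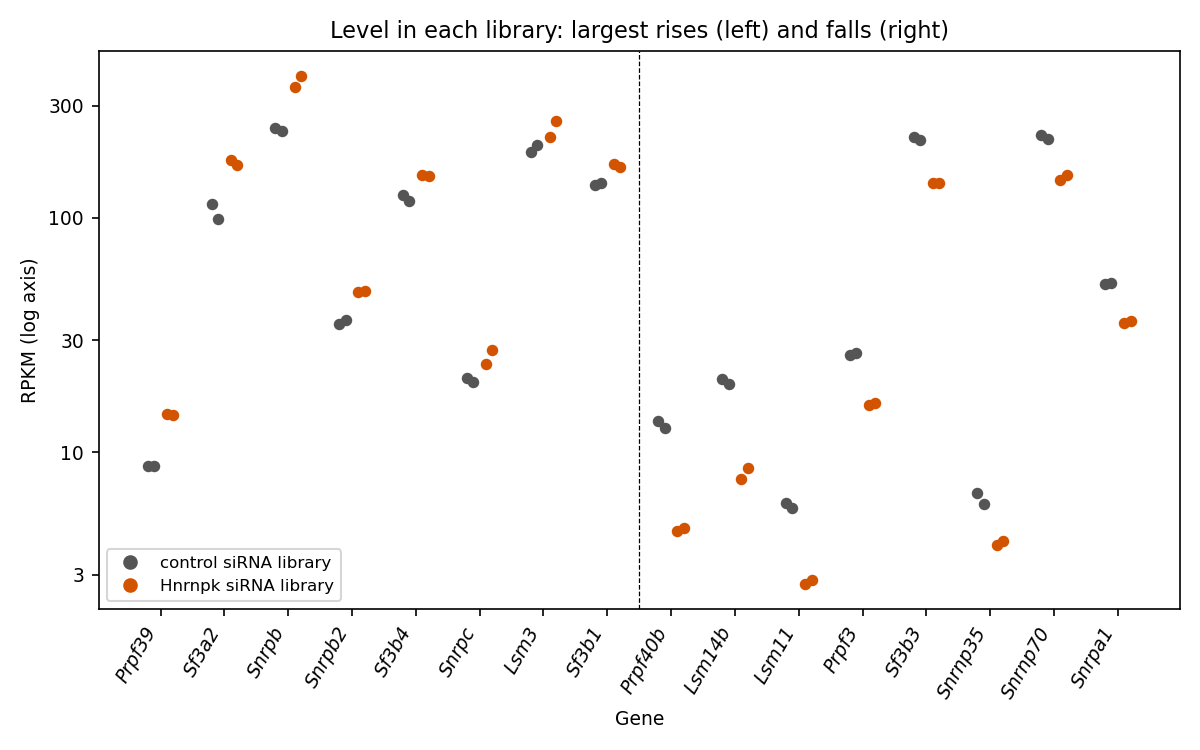
RPKM in each library (vertical log axis) for the 8 largest rises (left of the dashed line) and the 8 largest falls (right) among called genes; grey points are the 2 control siRNA libraries and orange points the 2 Hnrnpk siRNA libraries. Groups that do not overlap were a condition of the choice of these 16 genes. Their levels run from Lsm11 at 2.74 RPKM to Snrpb at 402 RPKM.

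Promoter stretches of 4 of these genes are shown because hnRNP K binds C-rich single strands and the 4 genes are those with the largest changes in each direction. They are RefSeq promoters on GRCm38.p6, the 250 bases before a RefSeq transcript start, which can differ from the GENCODE gene bounds given above: the Sf3a2 stretch lies within those bounds and the Prpf40b stretch runs past the first of them. They are written 5′ to 3′ on the gene's strand, with any match to CCCTCCC or its reverse complement in capitals. Prpf40b and Lsm14b fell; Prpf39 and Sf3a2 rose.
Prpf40b, chr15:99294991-99295240, plus strand: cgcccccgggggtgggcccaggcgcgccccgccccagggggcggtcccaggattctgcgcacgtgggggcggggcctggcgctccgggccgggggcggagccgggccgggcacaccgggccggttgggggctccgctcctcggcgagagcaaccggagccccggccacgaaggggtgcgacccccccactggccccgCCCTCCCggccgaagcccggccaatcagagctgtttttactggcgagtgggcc
Lsm14b, chr2:180024737-180024986, plus strand: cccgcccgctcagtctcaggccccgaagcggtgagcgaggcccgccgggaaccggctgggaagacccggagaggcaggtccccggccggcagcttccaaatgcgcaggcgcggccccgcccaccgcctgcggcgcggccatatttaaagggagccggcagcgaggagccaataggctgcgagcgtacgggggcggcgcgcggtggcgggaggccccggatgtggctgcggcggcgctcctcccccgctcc
Prpf39, chr12:65036084-65036333, plus strand: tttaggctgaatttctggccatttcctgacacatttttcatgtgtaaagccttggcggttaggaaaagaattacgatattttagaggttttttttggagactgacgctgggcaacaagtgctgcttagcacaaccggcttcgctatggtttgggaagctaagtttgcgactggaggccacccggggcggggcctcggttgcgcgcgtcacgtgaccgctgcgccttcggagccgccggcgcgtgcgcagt
Sf3a2, chr10:80798485-80798734, plus strand: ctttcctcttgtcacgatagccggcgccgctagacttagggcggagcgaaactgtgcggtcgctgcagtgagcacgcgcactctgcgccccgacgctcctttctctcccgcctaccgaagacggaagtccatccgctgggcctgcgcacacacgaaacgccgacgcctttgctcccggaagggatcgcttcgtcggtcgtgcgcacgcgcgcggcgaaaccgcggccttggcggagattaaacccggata
Of these 4 stretches, the Prpf40b one holds the motif, once. RefSeq gives Prpf40b a further start, whose stretch (chr15:99303034-99303283) holds no match. The GC content was 79.6% and 49.6% for the Prpf40b stretches, 76.0% for Lsm14b, 54.8% for Prpf39 and 65.2% for Sf3a2. RefSeq promoters were matched for 41 of the 51 genes, with 48 stretches, of which 5 (10.4%) held the motif on either strand. Among all 32851 promoter stretches of that length the share was 19.7%. A match is a description of the letters, and no binding was measured here.

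The Sm ring, the clamp of Sm proteins around the U1, U2, U4 and U5 RNAs, had no member called lower. Snrpb and Snrpg were called higher (28.6%) and 5 of the 7 genes were not called. Over all genes tested, 32.2% were called higher and 35.0% lower. Per length, the levels after control siRNA were 265 ± 13.5 RPKM for Snrpd2, 243 ± 5.03 for Snrpd3, 238 ± 3.92 for Snrpb, 197 ± 10.8 for Snrpd1, 147 ± 11.8 for Snrpe, 93.2 ± 2.77 for Snrpf and 47.8 ± 0.750 for Snrpg (SD, n = 2 each). Snrpd3 and Snrpb overlapped in these 2 libraries. Stretches at least 95% identical to other genes cover 100% of the Snrpf transcript and 42.0% of that of Snrpd1. They cover 33.6% for Snrpe, 29.9% for Snrpg and 25.1% for Snrpd2, so these levels are uncertain. After Hnrnpk siRNA Snrpb led the ring at 383 ± 27.5 RPKM (SD, n = 2), above Snrpd2 at 289 ± 37.5 RPKM (SD, n = 2). Snrpg stood at 47.2 and 48.3 RPKM after control siRNA and at 51.6 and 58.1 RPKM after Hnrnpk siRNA (log2 change 0.19, limma adjusted p = 0.0348). That call was lost without Hnrnpk siRNA replicate 2 (adjusted p = 0.274) and without control siRNA replicate 1 (adjusted p = 0.0885). Snrpe and Snrpd2 were not called with 4 libraries (log2 changes 0.17 and 0.12, adjusted p = 0.0710 and 0.274). They were called higher without Hnrnpk siRNA replicate 1 (adjusted p = 0.0398 and 0.0253), and Snrpe also without control siRNA replicate 2 (adjusted p = 0.0224) and with median ratio scaling (adjusted p = 0.0458). The 95% intervals of the remaining 3, Snrpf, Snrpd1 and Snrpd3, ran from -0.11 to 0.25 between them on the log2 scale. The summed level of the ring was 1203 and 1261 RPKM after control siRNA. After Hnrnpk siRNA it was 1362 and 1536 RPKM, so these groups did not overlap. Much of that rise was Snrpb: its mean went from 238 to 383 RPKM, and the mean of the sum from 1232 to 1449 RPKM. The sum over all genes also rose without overlap, from 359659 and 362836 to 377825 and 390467 RPKM. The median log2 change of the ring was 0.118, and -0.009 without Hnrnpk siRNA replicate 2.

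Proteins specific to the U1 snRNP did not move together. Snrnp70, which encodes the protein that binds the first stem-loop of U1 RNA, stood at 225 and 217 RPKM after control siRNA and at 146 and 152 RPKM after Hnrnpk siRNA, a 1.48-fold fall (log2 change -0.57, SE 0.0642, limma adjusted p = 4.19e-05). Snrpa, the U1 A protein, whose level per length after control siRNA overlapped that of Snrnp70, went from 231 and 224 RPKM to 189 and 196 RPKM, a 1.18-fold fall (log2 change -0.24, adjusted p = 0.00742). Snrpc, the U1 C protein, which contacts the splice site, moved the other way, from 20.8 and 19.97 RPKM to 23.7 and 27.2 RPKM (log2 change 0.31, SE 0.0771, adjusted p = 0.00549). None of the 3 pairs of groups overlapped. The Snrpc call was lost without Hnrnpk siRNA replicate 2 (adjusted p = 0.0667), and the Snrpa call with GC trends removed (log2 change -0.12, adjusted p = 0.107). Stretches at least 95% identical to other genes cover 71.2% of the Snrpa transcript and 42.5% of that of Snrpc, so both levels are uncertain. The summed level of the 6 genes was 528 and 515 RPKM after control siRNA and 409 and 422 RPKM after Hnrnpk siRNA, and these groups did not overlap.

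Of the 10 genes of the U2 snRNP, 4 were called higher, 3 lower and 3 were not called. Among all genes tested, 32.2% were called higher and 35.0% lower, 67.2% in either direction. Whether the U2 genes differed from these shares was not tested. The summed level of the U2 genes was 1339 and 1338 RPKM after control siRNA and 1350 and 1340 RPKM after Hnrnpk siRNA. Snrpa1 and Snrpb2 encode U2 A′ and B″, which bind U2 RNA as a pair. Snrpa1 stood at 52.1 and 52.8 RPKM after control siRNA and at 35.5 and 36.4 RPKM after Hnrnpk siRNA, a 1.46-fold fall (log2 change -0.54, SE 0.0604, limma adjusted p = 4.02e-05). Snrpb2 went from 35.2 and 36.6 RPKM to 48.1 and 48.5 RPKM, a 1.34-fold rise (log2 change 0.42, SE 0.0611, adjusted p = 2.10e-04). The pair thus changed order: Snrpa1 was the higher per length in both control siRNA libraries and the lower in both Hnrnpk siRNA libraries.

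SF3b, the part of U2 that holds the branch point, also split. Sf3b3 was at 222 and 214 RPKM in control siRNA libraries and at 141 and 141 RPKM in Hnrnpk siRNA libraries, a 1.55-fold fall (log2 change -0.63, SE 0.0626, limma adjusted p = 1.90e-05). Sf3b1, the scaffold that clamps the branch helix, went from 137 and 140.5 RPKM to 170.1 and 165 RPKM, a 1.21-fold rise (log2 change 0.27, SE 0.0621, adjusted p = 0.00363). Sf3b4 went from 126 and 118 RPKM to 152 and 151 RPKM, a 1.25-fold rise (log2 change 0.32, SE 0.0641, adjusted p = 0.00169). Sf3b4 shares 66.6% of its transcript with another gene. Sf3b2 was called lower with a small change (log2 change -0.17, adjusted p = 0.0315), but not when any 1 of the 4 libraries was left out (adjusted p = 0.0592 to 0.112). Sf3b5 stood at 219 ± 7.27 RPKM after control siRNA, overlapping Sf3b3 at the top of the U2 group per length, and was at 214 ± 9.09 RPKM in the knockdown (SD, n = 2 each). Its log2 change was -0.03, with a 95% interval of -0.19 to 0.12, and under quantile normalization it was called lower (adjusted p = 0.0475). In SF3a, which bridges SF3b and the rest of U2, Sf3a2 rose while Sf3a1 and Sf3a3 were not called (95% intervals -0.19 to 0.10 and -0.22 to 0.09); Sf3a1 was called lower under quantile normalization (adjusted p = 0.0310). A further SF3b subunit, Sf3b6, is listed in the table under the older symbol 0610009D07Rik and so was not among the 51. It was at 94.5 and 105 RPKM against 94.7 and 106 RPKM (adjusted p = 0.936).

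Of 13 genes of the tri-snRNP and other PRPF factors, 1 was called higher (7.69%, against 32.2% of all genes tested), 4 lower (30.8%, against 35.0%) and 8 were not called. With length trends removed 3 were called higher and 3 lower, Prpf4b and Snrnp27 among them. With no filter on low values 0 were higher and 2 lower, beside 3778 higher and 3771 lower among all 22138 genes. The median log2 change was -0.068, and -0.005 with length trends removed. Among these 13 genes the clearest falls were in proteins of the U4/U6 part, which keeps U6 paired with U4 until activation. Nhp2l1 and Ppih, U4/U6 proteins outside the choice by symbol, were not called (log2 changes 0.11 and 0.08). Prpf3 stood at 26.0 and 26.6 RPKM after control siRNA and at 15.8 and 16.2 RPKM after Hnrnpk siRNA, a 1.64-fold fall (log2 change -0.70, SE 0.0635, limma adjusted p = 1.11e-05). Prpf31 went from 27.2 and 32.1 RPKM to 19.6 and 21.3 RPKM, a 1.45-fold fall (log2 change -0.52, SE 0.0863, adjusted p = 4.93e-04). With no filter on low values the adjusted p for Prpf31 was 0.0607, and its exons overlap those of Gm15927 on the opposite strand over 18.1% of their length. Prpf4, which binds PRPF3, fell by less, from 23.5 and 24.6 RPKM to 20.95 and 21.4 RPKM (log2 change -0.18, adjusted p = 0.0316). That call was lost without control siRNA replicate 2, Hnrnpk siRNA replicate 1 or Hnrnpk siRNA replicate 2 (adjusted p = 0.112, 0.142 and 0.0922). Snrnp200, the helicase that unwinds U4 from U6, went from 87.1 and 88.4 RPKM to 78.8 and 73.5 RPKM (log2 change -0.20, adjusted p = 0.0176), and was not called without control siRNA replicate 2 (adjusted p = 0.0546) or Hnrnpk siRNA replicate 2 (adjusted p = 0.119).

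Apart from Snrnp200, the U5 proteins among the 13 genes, Prpf8, Prpf6 and Snrnp40, were not called. Other U5 proteins lay outside the choice by symbol. Of these, Txnl4a and Cd2bp2 were called higher (log2 changes 0.74 and 0.21) and Eftud2 and Ddx23 lower (-0.19 and -0.19). Prpf8, whose protein forms the cradle of the catalytic centre, had the highest level of the group at 293 and 299 RPKM after control siRNA and 290.3 and 275 RPKM after Hnrnpk siRNA (log2 change -0.07, 95% interval -0.22 to 0.08). Under quantile normalization it was called lower (log2 change -0.18, adjusted p = 0.0239). Prpf6, which holds the tri-snRNP together, was at 53.8 and 54.6 RPKM against 54.8 and 53.7 RPKM, with a 95% interval of -0.13 to 0.14. Snrnp40 had both Hnrnpk siRNA libraries above the control siRNA libraries without a call (log2 change 0.14, adjusted p = 0.0725); it was called higher with median ratio scaling (adjusted p = 0.0418) and with GC or length trends removed (adjusted p = 0.0317 and 0.0233). Prpf38a, a factor of the activating spliceosome, was the member called higher, from 20.6 and 21.1 RPKM to 23.4 and 25.7 RPKM (log2 change 0.23, adjusted p = 0.0148). It was not called without Hnrnpk siRNA replicate 2 (adjusted p = 0.147). Prpf19, the ubiquitin ligase of the complex that stabilises the active spliceosome, and Prpf18, a factor of the later step of splicing, had log2 changes of 0.01 and 0.03 with overlapping groups.

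The Lsm ring of U6 protects the end of U6 RNA, and its members spanned a wide range of levels. Per length, Lsm4 led at 267 ± 15.9 RPKM after control siRNA and Lsm7 was lowest of the 6 at 9.89 ± 0.814 RPKM (SD, n = 2 each). Sequence shared with other genes covers 56.5% of the Lsm5 transcript, 27.8% of that of Lsm7 and 23.55% of that of Lsm3, so these levels are uncertain. Lsm2 was called lower, at 50.9 and 53.9 RPKM against 40.6 and 40.1 RPKM, a 1.30-fold fall (log2 change -0.37, SE 0.0625, limma adjusted p = 5.35e-04). Lsm3 was called higher, at 191 and 204 RPKM against 222 and 259 RPKM, a 1.22-fold rise (log2 change 0.28, SE 0.0834, adjusted p = 0.0139). The Lsm3 call was lost without Hnrnpk siRNA replicate 2 (adjusted p = 0.104), without control siRNA replicate 1 (adjusted p = 0.0613) and under quantile normalization (adjusted p = 0.0549). Lsm4 was at 256 and 278 RPKM after control siRNA and at 228 and 259.8 RPKM after Hnrnpk siRNA, so its groups overlapped (log2 change -0.13, 95% interval -0.31 to 0.05); it was called lower without Hnrnpk siRNA replicate 2 (adjusted p = 0.0448), under quantile normalization (adjusted p = 0.0100) and with length trends removed (adjusted p = 0.0229). Lsm5 differed most between replicates, with 49.4 and 66.0 RPKM in the Hnrnpk siRNA libraries on either side of 55.5 and 55.0 RPKM in the control siRNA libraries; without Hnrnpk siRNA replicate 1 it was called higher (adjusted p = 0.0182). The ring's own subunit Lsm8 is listed under the older symbol Naa38 and was therefore outside the 51. It rose from 9.24 and 8.62 RPKM to 13.0 and 12.4 RPKM (log2 change 0.49, SE 0.0730, adjusted p = 2.62e-04).

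Among the 6 Lsm genes with other roles, Lsm14b and Lsm11 were called lower (33.3%, against 35.0% of all genes tested). One gene, Lsm14a, was called higher (16.7%, against 32.2%) and 3 were not called. Lsm14a, the relative of Lsm14b, was at 60.8 and 59.9 RPKM against 67.1 and 67.1 RPKM and was called higher by a small amount (log2 change 0.15, limma adjusted p = 0.0458). That call was lost when any 1 of the 4 libraries was left out (adjusted p = 0.0878 to 0.132). Lsm10, the partner of Lsm11 in the U7 ring, was at 29.8 and 29.0 RPKM against 25.7 and 28.5 RPKM (log2 change -0.11, 95% interval -0.27 to 0.04, adjusted p = 0.176). Both Hnrnpk siRNA libraries lay below the controls for Lsm10, and it was called lower with length trends removed (-0.21, adjusted p = 0.0102). Lsm1, which takes the place of Lsm8 in the cytoplasmic ring that promotes decapping, had a log2 change of 0.11 with overlapping groups and was called higher without control siRNA replicate 2 (adjusted p = 0.0450). Lsm12 led this group at 84.1 ± 0.271 RPKM after control siRNA and was at 89.3 ± 5.34 RPKM in the knockdown (SD, n = 2 each), without a call (adjusted p = 0.270).

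For the minor spliceosome, the symbols gave 3 proteins of its U11 and U12 snRNPs. Snrnp35, a relative of Snrnp70, stood at 6.71 and 6.03 RPKM after control siRNA and at 4.02 and 4.19 RPKM after Hnrnpk siRNA, a 1.55-fold fall (log2 change -0.57, SE 0.0839, limma adjusted p = 2.25e-04). Snrnp25 was at 83.9 and 91.5 RPKM against 90.7 and 115 RPKM. Its groups overlapped and it was not called (log2 change 0.22, adjusted p = 0.0817), but it was called higher without Hnrnpk siRNA replicate 1 (0.39, adjusted p = 0.00225) and without control siRNA replicate 2 (0.28, adjusted p = 0.0391), and with median ratio scaling or GC trends removed (adjusted p = 0.0486 and 0.0256). Snrnp48 was not called (log2 change 0.07, 95% interval -0.09 to 0.24).

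A difference between the Hnrnpk siRNA replicates ran through these genes by transcript length. Among the 15 members with a transcript under 1200 bases, a bound chosen after the values were seen, 14 were higher in Hnrnpk siRNA replicate 2 than in replicate 1, with a median difference of 0.17 on the log2 scale. Among the 36 longer members 21 were higher, with a median of 0.022. The control siRNA replicates had medians of 0.032 and 0.021 in the same classes. Across the 51 genes, which share the libraries and are no replicates, Spearman's rho of the replicate difference with transcript length was -0.69 for Hnrnpk siRNA and -0.02 for control siRNA. The same split was present over all genes tested, with a median of 0.108 for 1117 short transcripts and 0.014 for 11153 longer ones. Lsm5, Snrnp25 and Snrpf, with transcripts of 494, 821 and 861 bases, had replicate differences of 0.41, 0.34 and 0.23; Snrpd2, among the longer members at 1420 bases, had one of 0.26. Of the 11 genes called higher, 4 have short transcripts (Snrpb, Snrpg, Snrpc and Lsm3), and 3 of these 4 lost the call without Hnrnpk siRNA replicate 2; Snrpb kept it. Of the 7 longer genes called higher, Lsm14a and Prpf38a lost it.

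**Figure D3:**
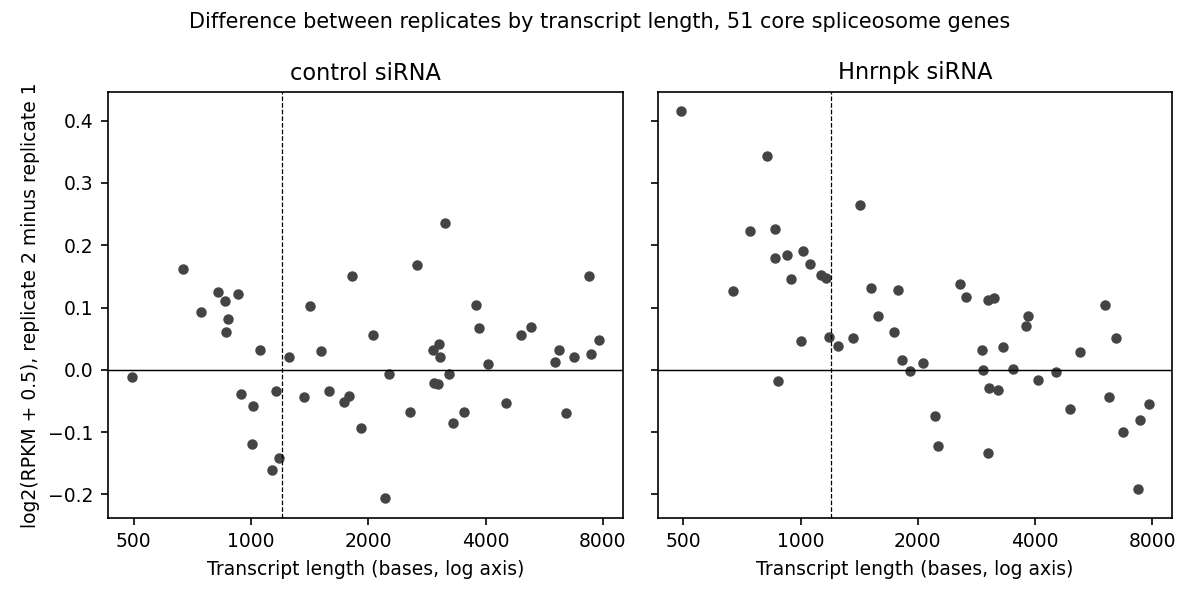
Difference of log2(RPKM + 0.5) between replicate 2 and replicate 1 (vertical) against transcript length in bases (horizontal log axis) for the 51 genes, in control siRNA (left) and Hnrnpk siRNA (right); the dashed line is at 1200 bases. In Hnrnpk siRNA 14 of the 15 genes left of the line are above 0, up to 0.41 for Lsm5.

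Other properties that did not enter the choice of genes were described by direction. The median transcript length was 1915 bases for the 11 genes called higher, 3038 for the 14 called lower and 2038 for the 26 not called. The median GC content was 46.5%, 50.98% and 47.3% in the same order. Across the 51 genes, Spearman's rho of the log2 change was -0.24 with transcript length, -0.32 with GC content and 0.13 with the level after control siRNA. Sequence shared with other genes covered over 20% of the transcript for 12 of the 51 genes and none of it for 29. It reached 100% for Snrpf, whose exons also overlap genes on the opposite strand over 85.4% of their length.

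The remaining genes of the pathway were read from lists written by role, so that the 51 could be set beside them. Of 66 further spliceosome subunits tested, 26 were called higher and 11 lower (39.4% and 16.7%, against 32.2% and 35.0% of all genes tested), with a median log2 change of 0.105 against -0.015 over all genes tested. The median was 0.060 without control siRNA replicate 1. U2af1, which recognises the end of the intron, fell furthest, from 63.3 and 67.9 RPKM to 21.04 and 22.1 RPKM (log2 change -1.58, SE 0.0663, limma adjusted p = 1.37e-07); it shares 74.7% of its transcript with other genes. Dnajc8, a spliceosome-associated chaperone, fell from 101 and 98.6 RPKM to 56.4 and 57.4 RPKM (log2 change -0.80). Gpkow, a partner of the helicase DHX16, rose from 7.69 and 8.26 RPKM to 14.9 and 14.7 RPKM (log2 change 0.85), and Syf2, of the active spliceosome, from 35.0 and 34.8 RPKM to 59.5 and 60.1 RPKM (log2 change 0.77). U2af2, the partner of U2af1, was called higher (log2 change 0.34, adjusted p = 0.00255) and shares 64.8% of its transcript with other genes.

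Of 8 further minor spliceosome genes, 6 were called higher and none lower by limma (against 32.2% and 35.0% of all genes tested), with a median log2 change of 0.503. The remaining 2, Zcrb1 and Pdcd7, lay below the controls in both libraries, with unadjusted p of 0.0458 and 0.118 from limma. With GC trends removed 1 gene was called lower, and with length trends removed 2 were. Armc7, a component of the minor spliceosome, rose from 1.81 and 2.02 RPKM to 5.37 and 5.42 RPKM (log2 change 1.29, SE 0.0861, limma adjusted p = 1.75e-06). Zrsr2, which recognises the end of minor introns, rose from 5.97 and 6.06 RPKM to 11.2 and 10.9 RPKM (log2 change 0.83, SE 0.0718, adjusted p = 8.46e-06). Snrnp35, from the 51, fell, and whether that difference in direction is particular to it was not tested.

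Genes that build snRNPs also went both ways: 13 of 30 were called higher and 5 lower (43.3% and 16.7%, against 32.2% and 35.0% of all genes tested), with a median log2 change of 0.156. The median was 0.096 without control siRNA replicate 1. Within the SMN complex, which loads the Sm ring onto RNA, Gemin5 fell from 96.2 and 99.5 RPKM to 58.4 and 58.3 RPKM (log2 change -0.74) and Gemin4 from 85.8 and 97.5 RPKM to 59.3 and 58.6 RPKM (log2 change -0.63). Gemin4 shares 94.8% of its transcript with other genes. Snapc5, of the complex that starts transcription of small nuclear RNA genes, rose from 31.8 and 31.7 RPKM to 51.2 and 56.0 RPKM (log2 change 0.74), and Coil, the scaffold of Cajal bodies, from 35.4 and 35.4 RPKM to 52.7 and 60.8 RPKM (log2 change 0.67). Smn1 itself was called higher (log2 change 0.63, limma adjusted p = 1.72e-05).

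Among 11 decapping partners of the cytoplasmic Lsm ring, 3 were called higher and 5 lower (27.3% and 45.5%, against 32.2% and 35.0% of all genes tested), with a median log2 change of -0.062. The number higher was 1 without control siRNA replicate 2 and with no filter on low values. Without Hnrnpk siRNA replicate 2 it was 2, and the median was 0.015; with length trends removed the median was 0.008. Dcp1b, a decapping cofactor, fell from 1.66 and 1.68 RPKM to 0.853 and 0.831 RPKM (log2 change -0.69), and Xrn1, the exonuclease that follows decapping, from 8.64 and 8.42 RPKM to 6.30 and 5.30 RPKM (log2 change -0.52). Patl2 and Dcp2 were called higher (log2 changes 0.43 and 0.36). Of 7 genes of histone pre-messenger RNA processing, where U7 acts, Cpsf3, the endonuclease, was the 1 called (14.3%, against 67.2% of all genes tested), falling from 90.2 and 89.5 RPKM to 74.5 and 71.4 RPKM (log2 change -0.30, limma adjusted p = 0.00178). Slbp, which binds the histone stem-loop, was at 36.3 and 36.6 RPKM against 35.6 and 35.9 RPKM (adjusted p = 0.707, with 60.2% of the transcript shared with other genes), beside the 2.11-fold fall of Lsm11.

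**Figure D4:**
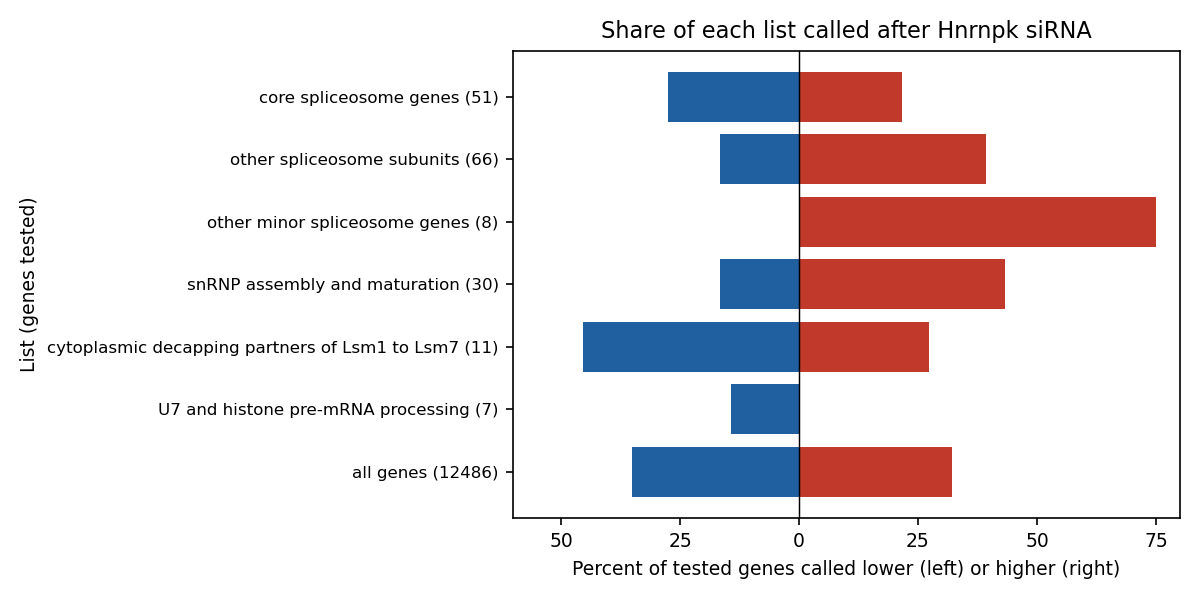
Percent of the tested genes of each list called lower (bars to the left) or higher (bars to the right) after Hnrnpk siRNA, with the number tested in brackets; each bar starts at 0. The core spliceosome genes had 27.5% lower and 21.6% higher, and all genes 35.0% and 32.2%.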

How the data were processed

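RNA-seq was analysed in 4 libraries. The values are RPKM as the authors deposited them, 1 column per library; BWA, SAMtools and mm9 are named in the submitters' processing notes, while the sources used here give no counting tool, annotation or strandedness. Per the labels, ribosomal RNA was depleted and, elsewhere, poly(A) RNA was selected. Total counts are unknown. At 0.5 RPKM a 1 kilobase transcript held 54.7 to 62.1 times the commonest low product of RPKM and length among single-exon genes. The 12486 genes averaging 0.5 RPKM or more were tested as log2(RPKM + 0.5), which understates changes of low genes, with limma 3.58.1 in R 4.3.3 (mean-variance trend, two-sided, Benjamini-Hochberg over all genes tested, called under 0.05). The smallest exact permutation p for 2 against 2 libraries is 0.333. On data simulated for this comparison over 12486 genes, the fit called 50% of changes of 0.3, 90.9% of 0.5 and 100% of 1 on the log2 scale, with 9 of 169 calls false. The deposited values gave 8396 calls (67.2%), so far more genes were called than in the simulation. Whether its shares hold for the deposited values was not tested. Coordinates, lengths and GC content came from GENCODE M21 (GRCm38) by identifier for 50 members and by symbol for Lsm3; shared sequence from BLAST 2.17.0 (95% identity, at least 100 bases). The members, roles and lists were chosen with earlier results of these data known. Named are the 8 largest rises and falls among called members whose groups do not overlap, and the highest member of each role group. The 2 largest rises and falls of each list followed the same rule, and further members are named where their group is described. U2af2, Smn1, Slbp, Zcrb1, Pdcd7, Txnl4a, Cd2bp2, Eftud2, Ddx23, Nhp2l1 and Ppih were named after their values were seen. Alternatives were other added values, filters, scalings, GC and length trends, the variance model, a replicate block, each library left out and a narrower choice of members. Values of 1 member, counted among the 51, are not reported here. No other column held values.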

Additional observations from a re-analysis of the deposited data

How the results depend on the processing

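Of the 25 member calls, 15 (6 higher, 9 lower) kept direction and call in all 14 alternative fits, and 17 kept both when each library was left out in turn; no called member changed direction in any of them. The number of members called higher was 11. With no filter on low values it was 7, with 12 lower, beside 3778 higher and 3771 lower among all 22138 genes. Leaving out 1 library at a time gave 6 to 14 higher and 11 to 13 lower, with a median log2 change of -0.022 to 0.025; the lowest number higher came without Hnrnpk siRNA replicate 2. Quantile normalization gave a median of -0.055. The cause was not tested. The remaining settings left both counts within 1.5 times. With the replicate block 13 were called higher and 14 lower, against 4162 and 4460 of the 12486 genes tested, and the median of the members was 0.013. The labels link same-numbered libraries by the number alone, so whether they were made together is not known (correlation of deviations 0.0267). The pairing changed the call for Snrpe and Snrnp25 only, both called higher with it.

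Genes not called crossed 0 in some settings. Under quantile normalization the log2 change was -0.055 for Prpf6, -0.084 for Prpf19, -0.026 for Snrpd3, -0.010 for Lsm5, -0.056 for Snrpd1 and -0.015 for Snrpf. With GC trends removed it was 0.031 for Lsm4, -0.034 for Prpf18, -0.13 for Lsm5, -0.017 for Snrpd1, -0.039 for Snrpf, -0.057 for Snrnp48 and -0.034 for Prpf4b. With length trends removed it was 0.0015 for Sf3a1, 0.0024 for Lsm6, -0.061 for Lsm5, -0.0036 for Lsm7 and -0.033 for Snrpf. Leaving out 1 library at a time gave log2 changes of -0.16 to 0.26 for Lsm5, -0.078 to 0.025 for Lsm6, -0.026 to 0.13 for Lsm7, -0.0028 to 0.065 for Prpf18, -0.039 to 0.066 for Prpf19 and -0.013 to 0.015 for Prpf6. They were -0.14 to 0.013 for Sf3a3, -0.078 to 0.0089 for Sf3b5, -0.025 to 0.15 for Snrpd1, -0.014 to 0.25 for Snrpd2, -0.009 to 0.10 for Snrpd3 and -0.043 to 0.18 for Snrpf. The cause was not tested. The lowest value of any member was 2.74 RPKM, for Lsm11 in Hnrnpk siRNA replicate 1. The part of depth in these results was not tested.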
